A study of Mus musculus with 28 samples.

Results

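The dual specificity phosphatases are enzymes that remove phosphate from both the threonine and the tyrosine of an activated kinase, and the group described here covers 10 genes, Dusp1, Dusp2, Dusp4, Dusp5, Dusp6, Dusp7, Dusp8, Dusp10, Dusp14 and Dusp16. Members were taken by symbol: a gene counted as measured when the platform annotation gave a probe set that symbol alone. By that rule 9 of the 10 genes were measured, each by 1 probe set, out of 15224 genes in the table, and Dusp5 was not analysed here. RNA came from skeletal muscle of mice injected into the cerebral ventricles with interleukin 1b (IL-1b), a cytokine of inflammation, or with vehicle, and muscle was taken 2, 4 or 8 h later. RNA of IL-1b mice was on 5 arrays for 2 h, 5 for 4 h and 3 for 8 h, and that of vehicle mice on 5 arrays for each time. Both treatments involved an injection into the brain, no uninjected group was used, and the sources used here give neither strain nor age. Whether every array stands for its own mouse is not said in the labels, so the p-values rest on the spread among these arrays, part of which may be technical.

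Mitogen-activated protein (MAP) kinases, namely ERK, p38 and JNK, carry growth and stress signals and are switched on by phosphorylation of a threonine and a tyrosine. MAP kinase phosphatases reverse that step, and several of their genes are themselves induced by the kinases they switch off, which closes a feedback loop. The family is usually divided into inducible nuclear enzymes, cytoplasmic enzymes that prefer ERK, and enzymes that prefer p38 and JNK. In this group the nuclear enzymes are Dusp1, Dusp2, Dusp4 and Dusp5. Those that prefer ERK are Dusp6 and Dusp7, and those that prefer p38 and JNK are Dusp8, Dusp10 and Dusp16. Dusp14 is a small, atypical member without the kinase-binding domain of the others.

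Promoter sequences of the 3 members that later differed between IL-1b and vehicle are given first, because these 3 moved in the same direction at 8 h. RefSeq (build GRCm38.p6) lists a window of 250 bases before to 50 bases after the gene start for 9 of the 10 members. These 9 lack Dusp4, which was not searched, and include Dusp5, so they are not the 9 measured members. Capitals mark every match, on either strand, to the motifs that were searched.
Dusp10 promoter, chr1:184034131-184034430 (+ strand): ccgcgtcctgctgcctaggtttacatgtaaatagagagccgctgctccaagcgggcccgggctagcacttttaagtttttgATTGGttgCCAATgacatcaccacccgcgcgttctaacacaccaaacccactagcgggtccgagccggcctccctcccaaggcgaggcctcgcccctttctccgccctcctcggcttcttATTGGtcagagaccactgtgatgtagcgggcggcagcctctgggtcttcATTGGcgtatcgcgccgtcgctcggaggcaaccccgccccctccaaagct
Dusp1 promoter, chr17:26508423-26508722 (- strand): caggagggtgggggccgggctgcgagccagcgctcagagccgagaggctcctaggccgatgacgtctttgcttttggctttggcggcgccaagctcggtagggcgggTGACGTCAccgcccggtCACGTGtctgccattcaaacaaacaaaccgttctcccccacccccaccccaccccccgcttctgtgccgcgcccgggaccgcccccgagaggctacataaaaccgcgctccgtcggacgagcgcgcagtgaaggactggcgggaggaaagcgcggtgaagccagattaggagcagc
Dusp6 promoter, chr10:99262981-99263280 (+ strand): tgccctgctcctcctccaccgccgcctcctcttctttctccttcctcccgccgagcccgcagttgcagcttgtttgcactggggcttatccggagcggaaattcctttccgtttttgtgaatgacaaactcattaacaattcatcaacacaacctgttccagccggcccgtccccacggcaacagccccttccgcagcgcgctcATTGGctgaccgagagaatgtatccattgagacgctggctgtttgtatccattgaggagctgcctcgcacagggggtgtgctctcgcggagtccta

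The motifs were the cAMP response element TGACGTCA, the E-box CACGTG, the FoxO motif GTAAACA, the STAT motif TTCNNNGAA, the CCAAT box CCAAT, the TATA box TATAAA, the palindromic glucocorticoid response element, the kB site and the CArG box, and no 2 matches overlapped in the 3 promoters shown. The Dusp1 window holds 1 cAMP response element, beginning 143 bases before the start, and 1 E-box. Dusp2 also holds 1 E-box, which 7.15% of all windows have. The Dusp8 window holds 2 cAMP response elements, and the element is present in 1.79% of all 32851 promoter windows. Dusp10 holds 4 CCAAT matches and Dusp6, Dusp7, Dusp8 and Dusp16 hold 1 each, so that 5 of 9 member windows have at least 1, against 37.4% of all windows. The FoxO, glucocorticoid, kB and TATA motifs were found in 0 of the 9 member windows, and they occur in 3.65%, 0.00913%, 8.46% and 13.6% of all windows. Dusp14 holds the 1 STAT match among the members (8.3% of all windows), and Dusp5 the 2 CArG boxes (1.63% of all windows). The 3 promoters shown thus share no single motif of this set.

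The arrays carry log2 values centred per probe set on the median of all 28 arrays, so that a value states how an array differs from the others and not how much transcript is present. For the same reason the level of muscle-defining transcripts could not be read, and levels cannot be compared between genes. Array medians ran from -0.02757 to 0.08438. In 3 arrays, vehicle 2 h replicate 7, vehicle 8 h replicate 1 and IL-1b 8 h replicate 22, values spread more widely over probe sets (SD of at least 0.2978, against at most 0.2229 in the other arrays). Of 12 muscle fibre markers 9 were measured, and 0 passed in any comparison of IL-1b with vehicle by limma. In bulk tissue, fewer cells of a type and less RNA per cell cannot be told apart.

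The main comparison was IL-1b against vehicle at each time. At 2 h no member passed the threshold, at 4 h Dusp10 was lower after IL-1b, and at 8 h Dusp10, Dusp1 and Dusp6 were lower. No member was higher past the threshold at any time. Calls are from limma, with p-values adjusted by the Benjamini-Hochberg method across the 17831 probe sets and a threshold of 0.01, the false discovery rate in the study's design text.

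**Figure D1:**
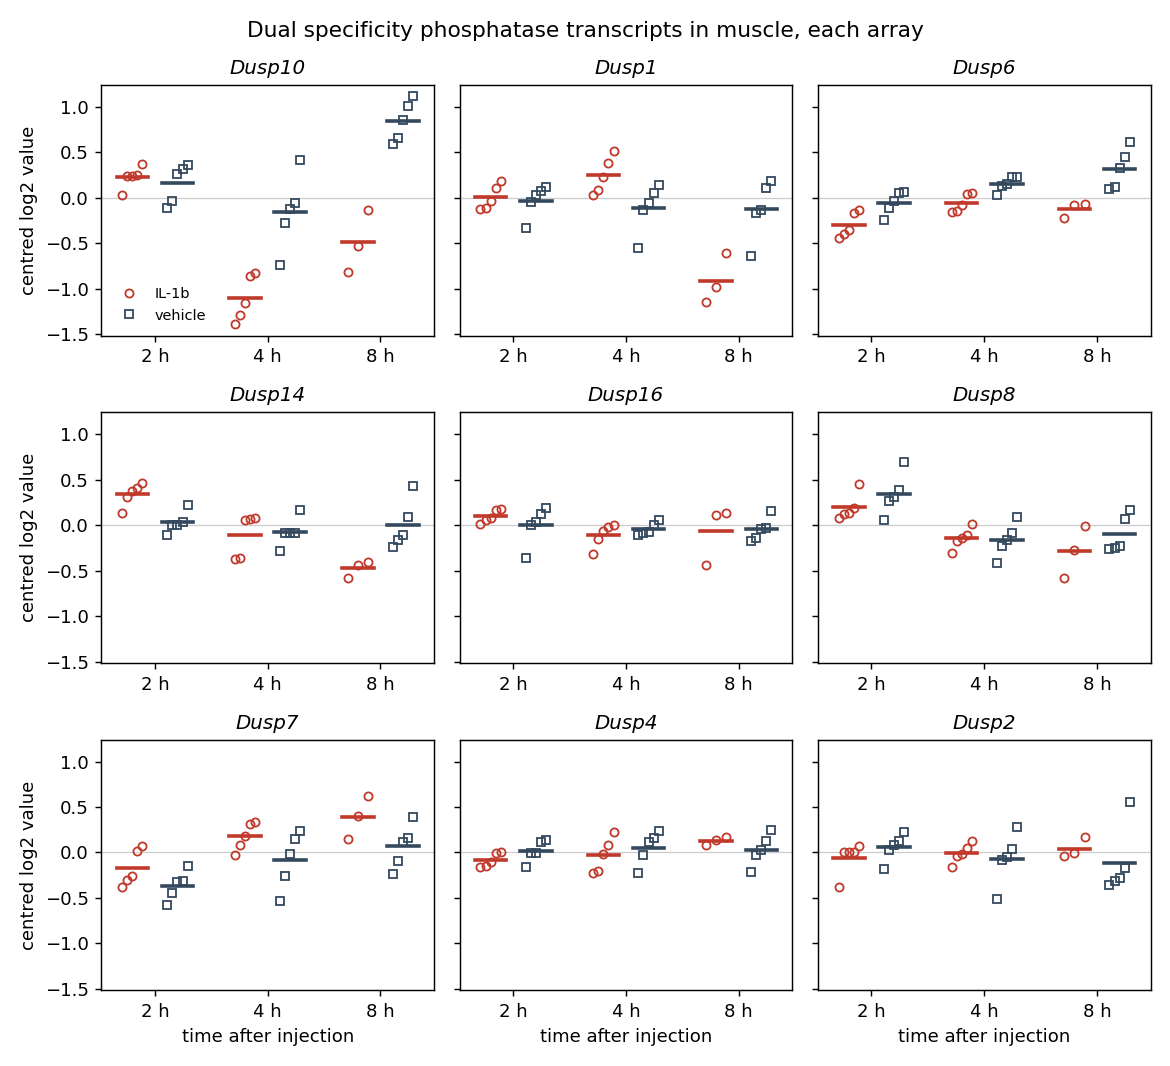
Centred log2 value of each measured dual specificity phosphatase (vertical axis) on every array at 2, 4 and 8 h after injection (horizontal axis), with IL-1b arrays as red circles left of vehicle arrays as blue squares and horizontal bars at group means. Dusp10 after IL-1b sat between -1.39 and -0.83 at 4 h, below all vehicle arrays of that time, and vehicle arrays at 8 h sat between 0.59 and 1.12.

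Dusp10 inactivates p38 and JNK and is the 1 member of the stress-kinase branch that passed in the comparison of IL-1b with vehicle. At 2 h its centred values were 0.03, 0.24, 0.24, 0.26 and 0.37 after IL-1b, against -0.11, -0.03, 0.26, 0.32 and 0.36 in vehicle. The groups overlapped and the difference on the log2 scale was 0.07 ± 0.16 (SE, 5 arrays a group, limma adjusted p = 0.877). At 4 h the values were -1.39, -1.28, -1.15, -0.86 and -0.83 after IL-1b, against -0.74, -0.27, -0.12, -0.06 and 0.41 in vehicle. Every IL-1b array lay below every vehicle array, with vehicle replicate 5 the closest. Dusp10 fell by 0.95 (SE 0.16, n = 5 per group, limma adjusted p = 0.000895), so that IL-1b arrays averaged 0.519 of the vehicle signal. At 8 h the values were -0.82, -0.53 and -0.13 after IL-1b, against 0.59, 0.66, 0.85, 1.01 and 1.12 in vehicle. The groups were separated by more than the spread of either one. The difference of -1.34 ± 0.19 (SE, n = 3 and 5, limma adjusted p = 3.62e-05) placed Dusp10 at rank 62 of all probe sets by p.

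The call at 4 h ended after a further quantile normalization (-1.06, limma adjusted p = 0.0131) and when only the 4 h groups were fitted (adjusted p = 0.0235). At 8 h Dusp10 passed in all 8 other settings of the fit and without each of the 8 arrays in turn, with differences from -1.52 to -1.17. Without the 3 arrays of widest spread the difference at 8 h was -1.22 (adjusted p = 0.00118).

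Dusp16, a phosphatase that prefers JNK, and Dusp8, which acts on JNK and p38, showed no such difference. Dusp16 differed by 0.10, -0.07 and -0.02 on the log2 scale at 2, 4 and 8 h, with 95% intervals of the difference from -0.10 to 0.30, from -0.27 to 0.13 and from -0.26 to 0.21. Dusp8 differed by -0.15, 0.02 and -0.19, with intervals from -0.39 to 0.10, from -0.22 to 0.26 and from -0.47 to 0.09.

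Dusp1, an immediate early gene whose product inactivates p38, JNK and ERK in the nucleus, was lower after IL-1b at 8 h. At 2 h the groups overlapped, from -0.13 to 0.19 after IL-1b against -0.34 to 0.12 in vehicle (difference 0.04 ± 0.14). At 4 h the values were 0.03, 0.08, 0.22, 0.38 and 0.51 after IL-1b, against -0.55, -0.13, -0.06, 0.06 and 0.14 in vehicle. Most IL-1b arrays stood above vehicle, but the difference of 0.35 ± 0.14 did not pass (limma adjusted p = 0.355). At 8 h the values were -1.14, -0.98 and -0.60 after IL-1b, against -0.64, -0.16, -0.13, 0.11 and 0.19 in vehicle. The groups overlapped through IL-1b replicate 22 and vehicle replicate 9. Dusp1 fell by 0.78 (SE 0.16, n = 3 and 5, limma adjusted p = 0.00383), and IL-1b arrays averaged 0.581 of the vehicle signal.

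The call for Dusp1 ended without IL-1b 8 h replicate 14 (-0.75, limma adjusted p = 0.0261) or 26 (-0.67, adjusted p = 0.0482) and without vehicle 8 h replicate 17 (-0.72, adjusted p = 0.0122) or 21 (-0.70, adjusted p = 0.0146). It also ended after a further quantile normalization (-0.69, adjusted p = 0.0467) and when only the 8 h groups were fitted (adjusted p = 0.124). Without the 3 arrays of widest spread it was -0.94 and passed (adjusted p = 0.00472).

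The other nuclear members did not pass. Dusp2, known from activated lymphocytes, differed by -0.12, 0.06 and 0.16 at 2, 4 and 8 h, and Dusp4 by -0.10, -0.08 and 0.10. Their largest interval bounds at 8 h were 0.49 for Dusp2 and 0.32 for Dusp4 on the log2 scale.

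Dusp6, a cytoplasmic phosphatase of ERK and itself a product of ERK signalling, was lower after IL-1b at 8 h by a smaller amount. The values at 8 h were -0.22, -0.08 and -0.07 after IL-1b, against 0.09, 0.11, 0.32, 0.45 and 0.62 in vehicle. No IL-1b array reached the lowest vehicle array. Dusp6 was lower by 0.44 (SE 0.10, n = 3 and 5, limma adjusted p = 0.00831), at 0.736 of the vehicle signal. At 2 and 4 h the differences were -0.24 ± 0.09 and -0.21 ± 0.09, which did not pass (limma adjusted p = 0.316 and 0.396). At 4 h the values ran from -0.16 to 0.06 after IL-1b, against 0.03 to 0.23 in vehicle, and the groups overlapped.

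The call for Dusp6 stood close to the threshold. It ended in 5 of the 8 other settings of the fit, with limma adjusted p up to 0.242 when only the 8 h groups were fitted and -0.51 (adjusted p = 0.0106) without the 3 arrays of widest spread. It also ended without IL-1b 8 h replicate 14, 22 or 26 or vehicle 8 h replicate 13, 17 or 21 (differences from -0.47 to -0.37, adjusted p from 0.0186 to 0.0676).

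Dusp7, the other cytoplasmic phosphatase of ERK in this group, had differences above 0. They were 0.19 ± 0.13, 0.26 ± 0.13 and 0.32 ± 0.15 at 2, 4 and 8 h, and 0 of the 3 passed (limma adjusted p = 0.585, 0.606 and 0.373). At 8 h the values were 0.14, 0.40 and 0.62 after IL-1b, against -0.24, -0.09, 0.11, 0.16 and 0.39 in vehicle, and the groups overlapped.

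Dusp14 averaged above vehicle at 2 h and below it at 8 h, without passing at any time. At 2 h the values were 0.14, 0.31, 0.37, 0.41 and 0.47 after IL-1b, against -0.11, 0.00, 0.00, 0.03 and 0.23 in vehicle. Replicate 2 was the IL-1b array within the vehicle range, and the difference was 0.31 ± 0.11 (limma adjusted p = 0.328). At 8 h the values were -0.58, -0.44 and -0.41 after IL-1b, against -0.25, -0.16, -0.11, 0.09 and 0.43 in vehicle. The groups were separate at 8 h, and the difference was -0.48 ± 0.13 (limma adjusted p = 0.0356).

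By count, 0 of 9 measured members passed limma's test at 2 h, against 0.0729% of all probe sets, and 2 members had an unadjusted p under 0.05, against 10.6% of all probe sets. At 4 h 1 of 9 was lower and 0 higher, against 0.269% of all probe sets lower and 0.578% higher. At 8 h 3 of 9 were lower, 0 higher and 6 did not pass, against 1.07% of all probe sets lower and 1.02% higher. The median difference over the 9 members was 0.04, -0.03 and -0.19 at 2, 4 and 8 h, against -0.02, 0.00 and 0.00 over all probe sets. The groups did not overlap for 1 member at 4 h, against 3.5% of all probe sets, and for 3 at 8 h (Dusp6, Dusp10 and Dusp14), against 6.67%. The members were chosen with earlier results of these data known. The shares of all probe sets, here and below, therefore give scale and do not test the group.

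**Figure D2:**
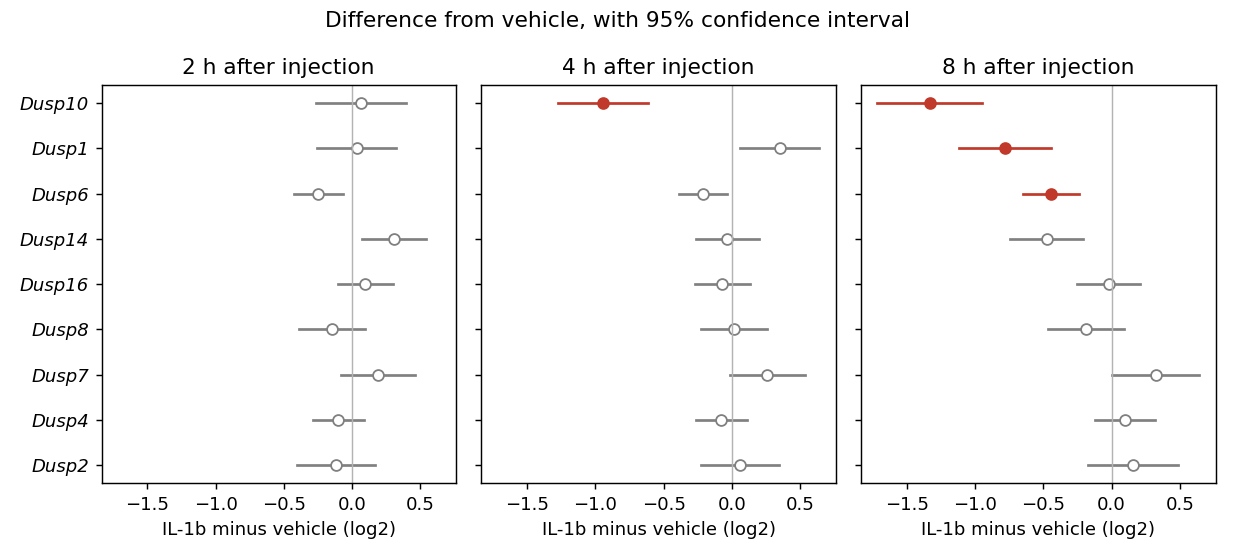
Difference between IL-1b and vehicle on the log2 scale (horizontal axis) with its 95% interval for 9 dual specificity phosphatases (rows) at 2, 4 and 8 h (panels). Filled red points passed the threshold: Dusp10 at 4 h (-0.95), and Dusp10 (-1.34), Dusp1 (-0.78) and Dusp6 (-0.44) at 8 h.

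The selection in the study's design text was also applied, an F-test over the 6 groups at a false discovery rate of 1% together with a 1.75-fold or larger IL-1b effect at some time. By limma's moderated F-test 6 of 9 members passed (Dusp1, Dusp6, Dusp7, Dusp8, Dusp10 and Dusp14), against 6.14% of all probe sets. Dusp10 was the 1 member that also reached 1.75-fold, against 0.684% of all probe sets. Its largest change was 2.53-fold (F-test adjusted p = 7.69e-08). Dusp1 reached 1.72-fold and fell just short.

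The test of whether the IL-1b effect itself changed between times was passed by 2 members. The effect on Dusp10 was more negative at 8 h than at 2 h by 1.41 on the log2 scale (-1.41 ± 0.25, limma adjusted p = 0.00254), 1 of 9 members against 0.247% of all probe sets in that direction. The call for Dusp10 ended without IL-1b 8 h replicate 22 (-1.24, adjusted p = 0.0155), without the 3 arrays of widest spread (-1.34, adjusted p = 0.015) and after a further quantile normalization (-1.60, adjusted p = 0.062). The effect on Dusp1 was more negative at 8 h than at 4 h (-1.14 ± 0.22, limma adjusted p = 0.00932), 1 of 9 members against 0.0953% of all probe sets. It stood at the threshold and ended when any 1 of 13 of the 18 arrays involved was left out, with differences from -1.29 to -1.02 over all 18. A further quantile normalization (-1.06, adjusted p = 0.0859) and a fit to only the groups involved (adjusted p = 0.0544) ended it too. Between 4 and 2 h, 0 of 9 effects differed by limma (0.0505% of all probe sets). At an unadjusted p under 0.05 there were 2 members, against 10% of all probe sets. For Dusp10 the difference between 4 and 2 h was -1.01 ± 0.23 (adjusted p = 0.0847). The effects on Dusp10 at 8 and 4 h differed by -0.39, with an interval from -0.90 to 0.12, and were not shown to differ (adjusted p = 0.902). For Dusp14 the effect at 8 h was lower than at 2 h by 0.79 without passing (-0.79 ± 0.17, adjusted p = 0.0173).

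The time courses within each treatment show which groups moved. These comparisons share arrays with those above and add no independent evidence. For Dusp10, IL-1b arrays at 4 h stood below IL-1b arrays at 2 h by 1.33 (-1.33 ± 0.16, limma adjusted p = 1.04e-05), while vehicle at 4 h differed from vehicle at 2 h by -0.32 ± 0.16 (adjusted p = 0.469). At 8 h the vehicle arrays rose above those of 4 h by 1.00 ± 0.16 (adjusted p = 0.00317), which is 2.00-fold, and IL-1b arrays at 8 h differed from those at 4 h by 0.61 ± 0.19 (adjusted p = 0.0935). Between 8 and 2 h the IL-1b arrays differed by -0.72 ± 0.19 (limma adjusted p = 0.0142). The vehicle arrays differed by 0.69 ± 0.16 (limma adjusted p = 0.0194), and neither change passed. Dusp10 thus fell in the IL-1b arrays between 2 and 4 h. At 8 h vehicle had risen since 4 h, and the IL-1b arrays still averaged below those of 2 h.

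The rise of Dusp10 in vehicle ended without vehicle 4 h replicate 1, 3 or 5 or vehicle 8 h replicate 17 or 21 (differences from 0.86 to 1.01, limma adjusted p from 0.0106 to 0.0174). It also ended after a further quantile normalization (1.34, adjusted p = 0.0109) and when only the vehicle 4 h and 8 h groups were fitted (adjusted p = 0.0852).

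**Figure D3:**
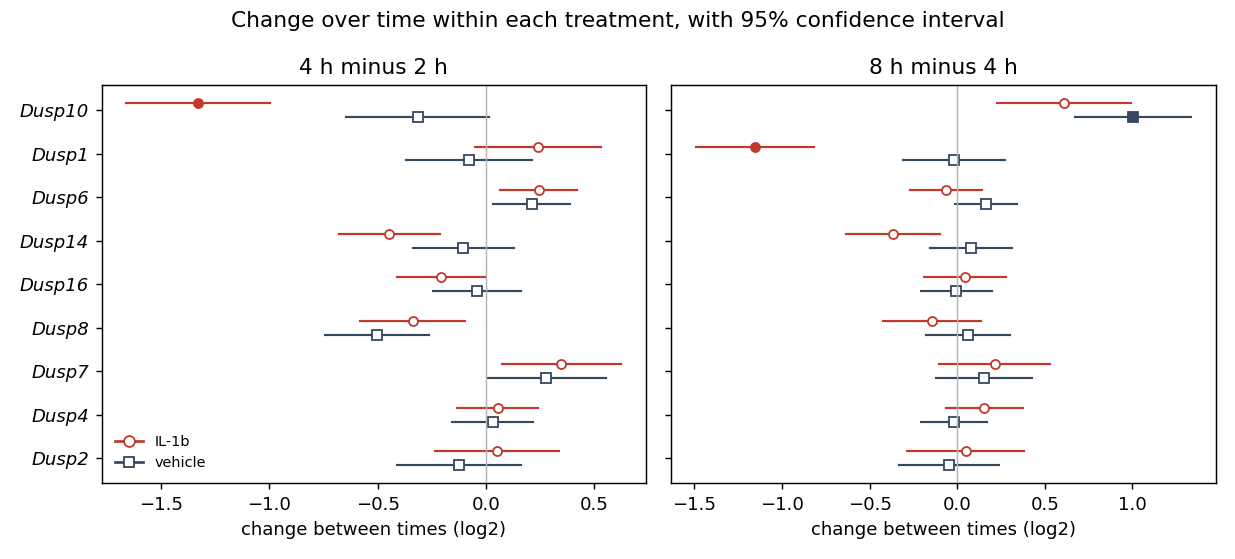
Change on the log2 scale (horizontal axis) between 4 and 2 h (left panel) and between 8 and 4 h (right panel) for each dual specificity phosphatase (rows), with 95% intervals, IL-1b as red circles above vehicle as blue squares and filled symbols for changes past the threshold. Dusp10 changed by -1.33 in IL-1b arrays between 2 and 4 h and by 1.00 in vehicle arrays between 4 and 8 h, and Dusp1 changed by -1.16 in IL-1b arrays between 4 and 8 h.

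For Dusp1 the change lay in the IL-1b arrays. They fell by 1.16 between 4 and 8 h (SE 0.16, limma adjusted p = 8.1e-05) and were lower at 8 h than at 2 h by 0.92 (-0.92 ± 0.16, adjusted p = 0.000444). In vehicle the difference between 8 and 4 h was -0.02, with an interval from -0.31 to 0.27. For Dusp6 no change between times passed in either treatment. Vehicle at 8 h stood above vehicle at 2 h by 0.37 ± 0.09 (limma adjusted p = 0.0174), and IL-1b at 8 h differed from IL-1b at 2 h by 0.18 ± 0.10 (adjusted p = 0.337). Dusp14 fell in the IL-1b arrays between 2 and 8 h by 0.81 (SE 0.13, limma adjusted p = 0.000133), and its vehicle values differed by -0.03 over the same interval.

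Dusp8 averaged less at 4 and 8 h than at 2 h in both treatments, without passing. Vehicle values spanned 0.05 to 0.70 at 2 h, -0.42 to 0.09 at 4 h and -0.26 to 0.17 at 8 h. In vehicle the difference was -0.50 ± 0.12 between 4 and 2 h (limma adjusted p = 0.0482) and the IL-1b difference over the same interval was -0.34 ± 0.12 (adjusted p = 0.175). Dusp7 ran the other way, with 0.56 ± 0.15 in IL-1b and 0.43 ± 0.13 in vehicle between 8 and 2 h (limma adjusted p = 0.0219 and 0.109).

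By count, in vehicle limma called 0 of 9 members between 4 and 2 h (0.101% of all probe sets) and 0 between 8 and 2 h (0.852%), where 3 and 4 members had an unadjusted p under 0.05, against 11.2% and 10.3% of all probe sets. Between 8 and 4 h it called Dusp10 higher (0.0953% of all probe sets higher). In IL-1b arrays it called 1 member lower between 4 and 2 h, Dusp10 (0.499% of all probe sets lower). It called 2 lower between 8 and 2 h, Dusp1 and Dusp14 (2.37%), and 1 lower between 8 and 4 h, Dusp1 (0.606%).

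The rest of the pathway was taken from gene lists. Of 15 measured dual specificity phosphatases outside the group, 1 was lower after IL-1b at 4 h and at 8 h, and 0 were higher. The lower one was Dusp18, an atypical member, against 0.269% and 1.07% of all probe sets lower at 4 and 8 h. Dusp18 at 8 h ran from -0.51 to -0.29 after IL-1b, against -0.05 to 0.53 in vehicle, with no overlap. Groups did not overlap for 6.67% of all probe sets at 8 h. Dusp18 was lower by 0.69 at 8 h (SE 0.11, limma adjusted p = 0.000174). At 4 h it was lower by 0.46 (SE 0.09, limma adjusted p = 0.00647). Its group means at 2 and 4 h were -0.06 and -0.06 after IL-1b, against 0.02 and 0.39 in vehicle. The 4 h call ended in 3 other settings or when any 1 of 8 of the 10 arrays was left out. Differences ran from -0.52 to -0.40 over the 10 (limma adjusted p up to 0.0379). Of 7 other phosphatases that act on MAP kinases, such as Ppm1a and Ppm1d, 0 passed at any of the 3 times in limma's test.

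Among 29 measured MAP kinases and kinases upstream of them, 0 passed at 2 h. After IL-1b 1 was higher at 4 h and 2 were higher at 8 h, with 0 lower. Over all probe sets 0.578% were higher at 4 h and 1.02% at 8 h. Map3k6, a stress-activated kinase of the ASK family, was above vehicle by 0.81 ± 0.12 at 4 h (limma adjusted p = 0.000138) and by 1.10 ± 0.14 at 8 h (adjusted p = 7.88e-06). Its group means at 4 and 8 h were 0.65 and 0.63 after IL-1b, against -0.15 and -0.47 in vehicle. Its values at 8 h ran from 0.43 to 0.96 after IL-1b, against -0.79 to -0.22 in vehicle. Map3k8, which activates ERK downstream of inflammatory receptors, rose by 0.60 ± 0.08 at 8 h (adjusted p = 1.58e-05), from 0.42 to 0.68 after IL-1b against -0.17 to 0.09 in vehicle. None of these 8 h calls of Dusp18, Map3k6 and Map3k8 held when only the 8 h groups were fitted (adjusted p = 0.05, 0.0176 and 0.03), and each held without any single array. Of 8 measured kinases downstream of MAP kinases, 0 passed.

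Genes that ERK signalling induces, or that feed back on it, gave few calls. Of 16 measured, Errfi1, an inhibitor of EGF receptor kinases, rose at 4 h (0.62 ± 0.13, limma adjusted p = 0.00538). The transcription factor gene Myc rose at 8 h (0.74 ± 0.14, limma adjusted p = 0.00149), with 0 lower. The shares of all probe sets called higher were 0.578% at 4 h and 1.02% at 8 h. The Errfi1 call ended when only the 4 h groups were fitted (adjusted p = 0.0253) and without any 1 of 8 of the 10 arrays at 4 h (0.57 to 0.64, adjusted p from 0.0116 to 0.0249). The Myc call ended without IL-1b 8 h replicate 14 (0.65, adjusted p = 0.0214), after a further quantile normalization (0.45, adjusted p = 0.156) and when only the 8 h groups were fitted (adjusted p = 0.096). Spry4, a feedback inhibitor of ERK signalling that like Dusp6 is an ERK target, was singled out after its values were seen. It differed by -0.30, -0.15 and -0.29 at 2, 4 and 8 h without passing (limma adjusted p = 0.179, 0.722 and 0.129). Over the 16 genes of the list the median difference was -0.07, 0.04 and -0.02 at 2, 4 and 8 h. Of the 16, 6, 10 and 7 genes had a difference above 0 at these times. Between vehicle at 4 h and vehicle at 2 h 0 of the 16 genes lay above 0 and 0 passed, with a median of -0.12 against -0.01 over all probe sets.

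**Figure D4:**
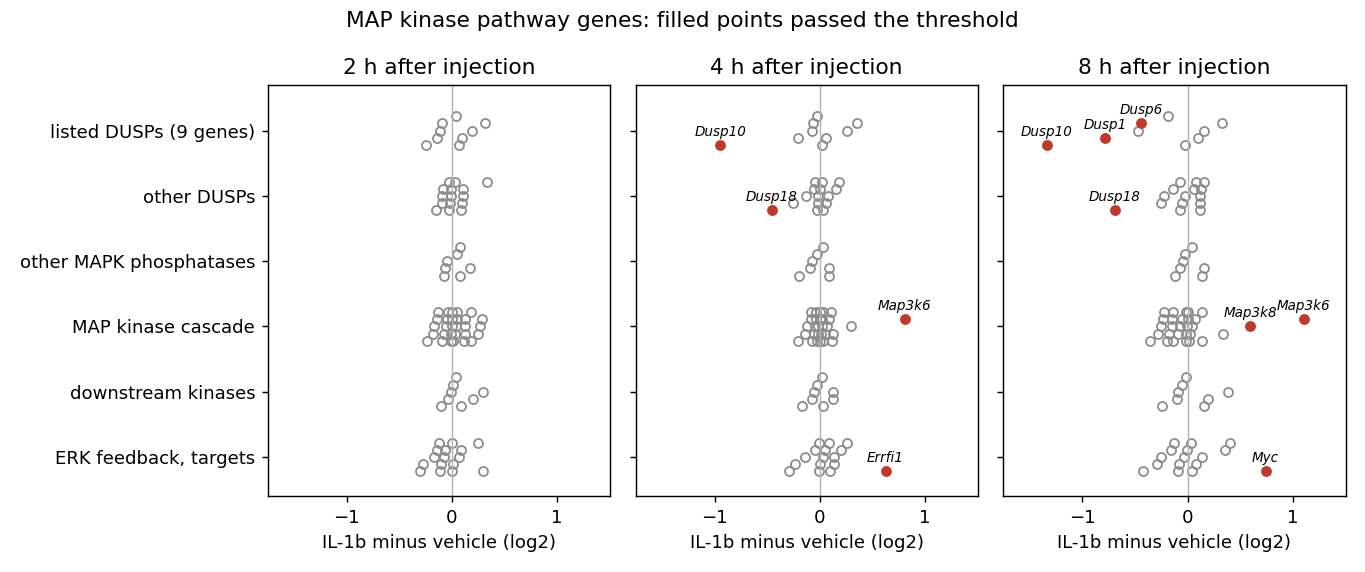
Difference between IL-1b and vehicle on the log2 scale (horizontal axis) at 2, 4 and 8 h (panels) for the listed dual specificity phosphatases and 5 lists of related genes (rows), 1 point a gene, with filled red points past the threshold. Named points at 8 h are Dusp10, Dusp1, Dusp6 and Dusp18 below 0 and Map3k8, Map3k6 and Myc above 0.

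The patterns most like those of the called members were sought over the 28 arrays, which share groups and time points. Dusp10 correlated most with Cxxc5 (Pearson r = 0.861), Septin4 (r = 0.856) and Kdr, the endothelial receptor of VEGF (r = 0.846). Dusp1 was most like Nr4a1, another immediate early gene (r = 0.738), Slco2a1 (r = 0.731) and Prkag3 (r = 0.721). Dusp6 was most like Srpx2 (r = 0.81), Ephx1 (r = 0.806) and Cpt1a (r = 0.802). After group means were subtracted the nearest genes were others, led by Ythdc1 for Dusp10 (r = 0.704), Evc2 for Dusp1 (r = 0.762) and Ston1 for Dusp6 (r = 0.82). Among the members themselves, Dusp7 and Dusp8 ran most nearly opposite (r = -0.696). After group means were subtracted this pair had r = -0.423, and Dusp6 and Dusp14 ran most nearly opposite (r = -0.656).

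Markers of other cell types were set beside these results. Kdr was the 1 of 10 endothelial markers that passed at 4 h, lower by 0.94 (limma adjusted p = 3.59e-05), against 0.269% of all probe sets lower. At 8 h 0 passed. Of the 10 endothelial markers, 0, 1 and 4 had a difference above 0 at 2, 4 and 8 h, with medians of -0.19, -0.20 and -0.17. The mean of the endothelial list at 4 h ran from -0.285 to -0.11 after IL-1b, against -0.119 to 0.217 in vehicle. For 8 h the span was -0.00249 to 0.0218 after IL-1b, against 0.0139 to 0.259 in vehicle. The 8 fibroblast markers had a median difference of -0.38 at 8 h, where 0 passed, with list means of -0.546 to 0.0749 after IL-1b, against -0.0375 to 0.293 in vehicle. Of 8 monocyte and macrophage markers 0 passed, but all 8 had a difference above 0 at 8 h, with a median of 0.08. At 2 h 0 of the 8 had a difference above 0, with a median of -0.22. Their list means at 8 h did not overlap, at 0.0692 to 0.215 after IL-1b, against -0.106 to 0.042 in vehicle. At 4 h they overlapped, at -0.31 to 0.304 after IL-1b, against -0.132 to 0.166 in vehicle. The 10 neutrophil markers at 8 h had list means of -0.0988 to 0.107 after IL-1b, against -0.22 to 0.196 in vehicle, and the 9 lymphocyte markers -0.0548 to 0.117, against -0.081 to 0.252. In both lists 0 passed at 4 or 8 h. At 2 h 1 of the 10 neutrophil markers was higher by limma, against 0.0729% of all probe sets called. Neutrophil list means at 2 h were 0.000882 to 0.57 after IL-1b, against -0.147 to 0.0171 in vehicle. The part of these cell types in the results for Dusp10, Dusp1 and Dusp6 was not tested.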

How the data were processed

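The authors' deposited table holds log2 values of 17831 probe sets on 28 arrays, and the submitters' processing notes name RMA and mm9 without a software version. The base was taken as log2, the scale of RMA. Each probe set has a median of 0, so values are differences and signal over background cannot be read. Groups and replicate numbers came from titles, and 1 title whose code runs together was read by the pattern of the others.

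A model with 6 groups was fitted to all arrays with limma 3.58.1 in R 4.3.3 (22 residual and 3.95 prior degrees of freedom), and p-values were adjusted by the Benjamini-Hochberg method across probe sets, with a threshold of 0.01. Folds are 2 raised to the log2 difference. The model was tested on simulated data. Alternatives were another normalization, array centring, spread estimate, weights, filter, threshold, subsets of arrays and a block. All measured members are named. Up to 3 called genes are named for each list and contrast, and likeness is by Pearson correlation. The members and lists were chosen with earlier results of these data known. Gene lists were matched by symbol, and 1 older symbol through RefSeq. The number of arrays limits the precision.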

Additional observations from a re-analysis of the deposited data

Results flagged for a closer look

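The change of the IL-1b effect between times was flagged for 2 members because the test of the difference itself passed. For Dusp10 the effect at 8 h minus that at 2 h was -1.405, and for Dusp1 the effect at 8 h minus that at 4 h was -1.138, both on the log2 scale by limma's moderated test.

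In Dusp2, 2 arrays stood apart from the rest of their groups. IL-1b 2 h replicate 10 had a centred value of -0.3791, against 0.004732 to 0.0715 in the other 4 arrays. Vehicle 8 h replicate 1, which is also 1 of the 3 arrays whose values spread most, had 0.5568, against -0.3575 to -0.176 in the other 4. Of 45 groups of member values checked this way 2 were picked out, and chance alone picks about 1 in 20. Dusp2 passed in no comparison with or without these arrays.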

How the results depend on the processing

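No difference that passed changed sign in the alternatives, which were run for the 9 members and for Map3k6, Map3k8, Errfi1, Myc, Dusp18, Spry4 and Kdr. Dusp10 at 8 h passed in all 8 other settings and 8 leave-outs, and the other calls that ended are given beside their results. The cause was not tested. The numbers of probe sets called for IL-1b against vehicle at 2, 4 and 8 h, and for vehicle at 4 against 2 h, 8 against 2 h and 8 against 4 h, were 13, 151, 373, 18, 152 and 23. A further quantile normalization gave 26 at 2 h, 130 at 8 h, 28 for vehicle at 4 against 2 h and 8 for 8 against 4 h. It left 1 member at 8 h, and 0 members at 4 h, for vehicle at 8 against 4 h and for the change of effect between 8 and 2 h or 8 and 4 h. Fitting only the groups compared gave 0, 98, 37, 0, 19 and 0 probe sets, with fewer samples behind each spread. It left 1 member at 8 h, and 0 at 4 h, for vehicle at 8 against 4 h and for the change of effect between 8 and 4 h. Array weights, whose estimate did not reach its tolerance, gave 81, 443, 2630, 31, 280 and 87 probe sets. They gave 3 members for vehicle at 8 against 2 h, 1 and 3 for the effect at 4 and 8 h against 2 h, 2, 4 and 4 for IL-1b at 4 against 2 h, 8 against 2 h and 8 against 4 h, and 2 for the F-test with 1.75-fold. The more variable 50% of probe sets gave 24 at 2 h and 14 for vehicle at 8 against 4 h. Leaving out the 3 arrays of widest spread gave 8 at 2 h and 11 for vehicle at 4 against 2 h, with 0 members for the effect at 8 against 2 h and 2 for the F-test. A threshold of 0.05 gave 44, 265, 718, 84, 331 and 53 probe sets. It gave 1 and 3 members for vehicle at 4 and 8 h against 2 h, 2 for the effect at 8 against 2 h, and 2 and 5 for IL-1b at 4 and 8 h against 2 h. Leaving out 1 array at a time gave 2 to 40, 93 to 166, 254 to 386, 5 to 22, 79 to 169 and 6 to 26 probe sets. It gave 1 to 3 members at 8 h, 0 to 1 for vehicle at 8 against 2 h and 8 against 4 h, 0 to 2 and 0 to 1 for the effect at 8 against 2 h and 8 against 4 h, 2 to 3 for IL-1b at 8 against 2 h, and 1 to 2 for the F-test. IL-1b and vehicle groups of 1 time share no replicate number. Across groups 10 pairs of arrays carry the same number. Their deviations from the group means correlated from -0.434 to 0.678, with 4 of 10 over 0.1. Pairs across groups with different numbers spanned -0.737 to 0.793. With so few pairs and so wide a span, these correlations cannot show whether the numbers pair the samples. With the replicate number as a random block, 32 probe sets were called for vehicle at 4 against 2 h, 2 members for the effect at 8 against 2 h, and Dusp6 at 8 h did not pass (adjusted p = 0.0105). Signal over background cannot be read from centred values, so a dim probe set cannot be told from a bright one.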
